A study of Arabidopsis thaliana with 8 samples.

Results

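The comparison set iaa3 against wild type (Col-0) seedlings after both genotypes had received brassinolide (BL). It used the 4 BL libraries of an RNA-Seq series of 8, 2 for each genotype, chosen by genotype and treatment in the labels. The other 4 libraries, 2 of each genotype after mock treatment, served to show which differences were already there without BL. The iaa3 line carries the shy2-2 allele, a gain-of-function change in IAA3 itself (AT1G04240, chromosome 1) that stabilises the protein, so it stands for 1 allele of 1 gene. Seedlings of all 4 groups grew without light for 5 days with PPZ (propiconazole, 2 µM), which blocks the synthesis of brassinosteroids (BRs), and the treatment, mock or 100 nM BL, lasted 4 hr. RNA came from whole etiolated seedlings, so fewer cells of a type and less RNA per cell cannot be told apart in any result below. The labels do not say whether the 2 libraries of a group came from separate cultures, and p-values therefore measure only the spread between libraries, which may be technical.

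Auxin acts by bringing Aux/IAA repressor proteins to the TIR1/AFB receptors, which mark them for degradation. While they persist, the repressors hold back the auxin response factors (ARFs), which drive early auxin genes such as the SAUR, GH3 and Aux/IAA genes themselves, and a stabilised Aux/IAA protein such as that of iaa3 keeps this brake in place. BRs act through a receptor kinase at the cell surface and the transcription factor BZR1. In dark-grown seedlings BR, auxin, gibberellin and the PIF factors together promote elongation of the hypocotyl.

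With BL, genes of the auxin response, of wall loosening, of water transport and of the HLH module for cell elongation were lower in iaa3, and genes of the hypoxia response, of heat shock and of defence were higher. A gene was called when the genotypes differed at least 1.5-fold with an unadjusted p under 0.01 from edgeR's quasi-likelihood test. Of 20415 genes tested, 25.0% were called, 13.8% lower in iaa3 and 11.2% higher, and these shares are the background for each list below. The largest Benjamini-Hochberg adjusted p among the called genes was 0.024. A difference of at least 4-fold was found for 574 of the genes called lower and 468 of those called higher. In mock, iaa3 and wild type differed in 17.9% of genes, 9.48% lower and 8.47% higher. That balance of 1935 lower and 1729 higher genes depended on the scaling, since library size alone gave 2528 and 1306, and DESeq2 gave 1504 and 1593. The genotype difference itself changed between mock and BL, by the interaction of genotype and treatment at an adjusted p under 0.05, for 17.6% of genes, 9.95% towards lower and 7.63% towards higher values in iaa3 with BL. These were 2031 and 1558 genes, and with library size alone the balance turned over, to 1681 and 2156. Levels are given as CPM, a gene's counts scaled to the size of its library, for replicates 1 and 2 in that order, and log2 fold changes are iaa3 over wild type with the standard error (SE).

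The libraries held 18107519 to 23183988 counts, and 3 counts, the limit that a count of 0 allows, equalled 0.12 to 0.172 CPM. IAA3 mRNA stood at 129 and 121 CPM in wild type and 11.4 and 12.9 in iaa3 with BL, although the allele alters the protein, so this level does not check the genotype labels. The BR synthesis gene CPD, which BL is known to repress, had 124 and 121 CPM in wild type with BL against 623 and 556 without it, and 174 and 155 in iaa3 with BL against 631 and 601 without it. The wild type mock libraries stood apart from each other in hypoxia and seed storage genes: PDC1 had 91.7 and 14.6 CPM and CRA1 had 618 and 97.6. The iaa3 BL libraries differed in seed storage genes, with CRA1 at 21.8 and 124 CPM. Summed over 19 root markers, the level was 2380 and 2050 CPM in wild type BL and 1470 and 1620 in iaa3 BL, and 5 of the 19 were called lower, a number that dropped to 3 without wild type BL replicate 1. Of the 19, 1 was called higher, and the median log2 fold change was −0.3. In mock the sums were 2980 and 3330 CPM in wild type and 1610 and 1840 in iaa3, with 8 root markers called lower and 0 higher. The part of a lower root share in the results was not tested. Sums over 14 shoot apex and leaf markers (4830 and 5080 against 4210 and 3750 CPM), 11 guard cell and epidermis markers (208 and 189 against 188 and 197) and 10 phloem markers (267 and 259 against 257 and 249) lay closer together.

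**Figure D1:**
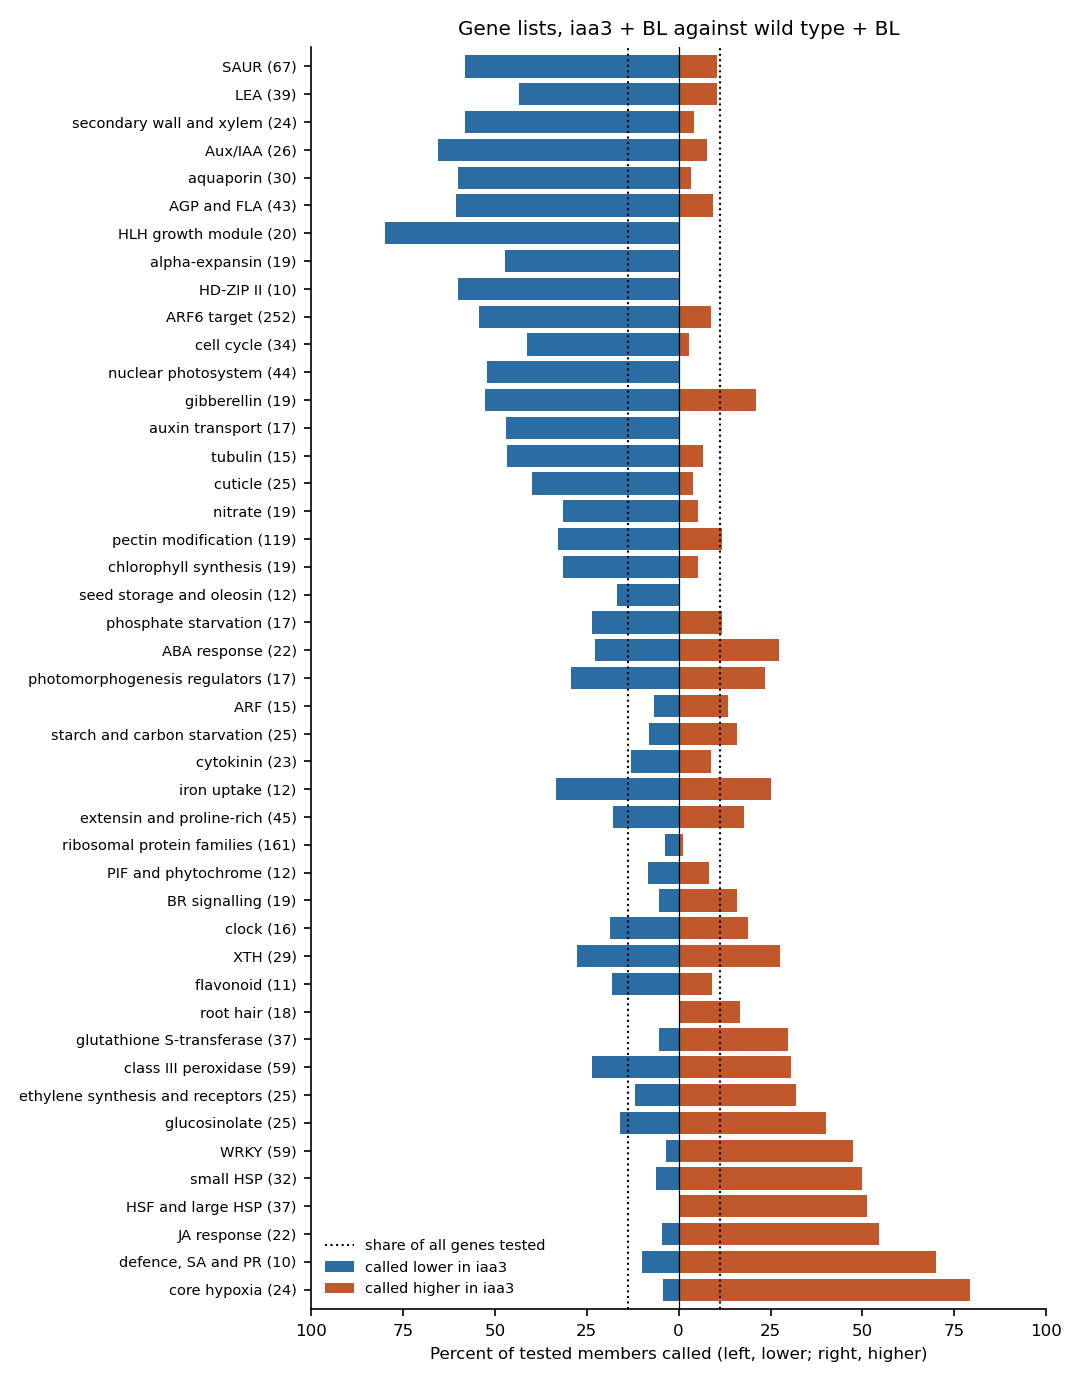
Share of the tested members of each gene list called lower (left, blue) or higher (right, orange) in iaa3 with BL, with the number of tested members in brackets and lists ordered by their median log2 fold change. Dotted lines mark the 13.8% and 11.2% of all genes tested. Bars for SAUR, Aux/IAA, aquaporin and HLH genes reach far to the left and that of the core hypoxia genes, 79.2%, furthest to the right.

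The Aux/IAA genes, which encode the repressors of the auxin response and are themselves induced by auxin, were mostly lower in iaa3. Of 26 members tested, 17 (65.4%) were called lower and 2 higher, and the median log2 fold change was −1.33. IAA19 (AT3G15540) had 106 and 98.7 CPM in wild type and 4.08 and 2.74 in iaa3, a log2 fold change of −4.92 (SE 0.14). IAA6 (AT1G52830) had 9.32 and 9.65 CPM in wild type and no count in either iaa3 library, and was at least 59.0-fold lower against a floor of 3 counts per library. IAA32, a member that lacks the usual degradation motif, had 11.7 and 12.3 CPM against 0.402 and 0.299, and IAA3 itself was 10.2-fold lower, with a log2 fold change of −3.36 (SE 0.10). The libraries of the genotypes did not overlap in these genes, which is no separate result. With 2 libraries a group genes without a difference can also lack overlap, and the share over all genes was not counted. The 2 members called higher were IAA28, with 30.1 and 31.9 CPM in wild type and 54.5 and 54.6 in iaa3, and AT4G29080, with 20.6 and 19.5 against 34.6 and 33.3. IAA9 was not called, at 458 and 436 CPM in wild type and 323 and 319 in iaa3 (log2 fold change −0.48, SE 0.06).

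The SAUR genes, early auxin-induced genes whose products promote cell expansion, included several with no or almost no count in iaa3. Of 67 tested, 39 (58.2%) were called lower and 7 higher, and the median was −1.81. SAUR22 (AT5G18050) had 23.6 and 21.1 CPM in wild type and no count in iaa3, at least 139-fold lower. SAUR20, SAUR26 and SAUR63 also had no count in iaa3 BL and were at least 94.6-, 86.9- and 86.2-fold lower, from 16.2 and 14.2, 14.3 and 13.6, and 13.4 and 14.3 CPM in wild type. SAUR19 had 28.6 and 27.1 CPM in wild type and 1 count in each iaa3 library, a ratio of 522 with a 95% counting interval of 144 to 4320. The genes SAUR19 to SAUR24 lie side by side on chromosome 5 and are near copies, so their single values are uncertain where reads match several of them. Among members away from that cluster, SAUR15 (AT4G38850) had 9.77 and 10.3 CPM against 0.0574 and 0.0498 (ratio 188, 95% counting interval 51.8 to 1560), and SAUR66 had 29.6 and 26.1 against 0.0574 and 0.598. Of the members called higher, AT1G56150 had a log2 fold change of 2.1, and the number called higher was 3 without wild type BL replicate 2.

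The sequences before 4 of these genes are shown because the genes stand for the Aux/IAA and SAUR members far lower in iaa3 with BL and each window holds the auxin response element. They are the 250 bases before the annotated gene start, 5′ to 3′ on the gene's strand, read from the RefSeq TAIR10.1 genome, and were chosen after the values were seen. Capitals mark motif matches on either strand. TGTCTC is the canonical auxin response element, CACGTG the G-box, and CACATG an E-box of the kind that PIF and BZR1 factors bind.
IAA6, chr1:19673653-19673902, minus strand: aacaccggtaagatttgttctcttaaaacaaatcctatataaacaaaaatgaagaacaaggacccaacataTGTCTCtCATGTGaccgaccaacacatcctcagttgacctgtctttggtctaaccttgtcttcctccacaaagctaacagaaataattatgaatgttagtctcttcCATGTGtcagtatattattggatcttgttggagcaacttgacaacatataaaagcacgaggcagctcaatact
IAA19, chr3:5263751-5264000, plus strand: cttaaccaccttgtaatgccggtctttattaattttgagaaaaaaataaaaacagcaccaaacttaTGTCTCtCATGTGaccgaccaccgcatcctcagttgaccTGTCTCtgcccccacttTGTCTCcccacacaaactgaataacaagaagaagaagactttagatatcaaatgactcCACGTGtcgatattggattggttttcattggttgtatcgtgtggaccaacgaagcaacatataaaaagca
SAUR15, chr4:18125807-18126056, plus strand: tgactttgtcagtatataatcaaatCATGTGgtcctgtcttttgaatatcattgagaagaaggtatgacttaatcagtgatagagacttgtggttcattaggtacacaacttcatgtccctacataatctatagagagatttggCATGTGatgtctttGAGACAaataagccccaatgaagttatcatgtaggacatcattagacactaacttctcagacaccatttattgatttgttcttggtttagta
SAUR22, chr5:5975088-5975337, minus strand: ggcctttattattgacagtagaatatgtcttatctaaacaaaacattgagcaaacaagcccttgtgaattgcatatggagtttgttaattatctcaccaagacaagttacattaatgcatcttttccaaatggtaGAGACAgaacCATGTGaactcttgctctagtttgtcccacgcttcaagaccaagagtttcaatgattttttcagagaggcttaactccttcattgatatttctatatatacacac
IAA19 holds TGTCTC at 3 places, which begin 184, 145 and 128 bases before the start, while IAA6, SAUR15 and SAUR22 hold it at 179, 92 and 115 bases. In IAA6 and IAA19 the copy furthest from the start is followed by CACATG, beginning 172 and 177 bases before the start. Over all 20280 tested genes with a window of this length, 10.6% held TGTCTC, 7.36% CACGTG and 11.1% CACATG. Among genes called lower in iaa3 these shares were 12.7%, 8.40% and 16.4%, and among genes called higher 10.3%, 7.54% and 9.30%. Of the Aux/IAA genes 34.6% (9 of 26) held TGTCTC, and of the SAUR genes 40.3% (27 of 67) held CACATG while 10.4% held TGTCTC. A second form of the auxin response element, TGTCGG, stood in 4.54% of all windows and 4.43% of those of genes called lower. A match of letters is a description and not evidence of binding.

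The GH3 genes of auxin conjugation, whose enzymes join auxin to amino acids, were also lower: 5 of 6 tested, with a median of −1.40. GH3.3 had 62.9 and 47.1 CPM in wild type and 10.9 and 11.2 in iaa3 (log2 fold change −2.32, SE 0.18), GH3.6 had 42 and 35.8 against 12.5 and 14.3 (−1.53, SE 0.12), and GH3.17 had 47.7 and 47.3 against 19.1 and 20.4 (−1.27, SE 0.08). GH3.1 was lower at a low level, 7.17 and 4.29 against 0.861 and 1.4 CPM, and the call of GH3.5 was lost without wild type BL replicate 1 (log2 fold change −0.53) or iaa3 BL replicate 1 (−0.52). Of 17 auxin transport genes, 8 (47.1%) were called lower. They included the influx carrier LAX2, with 23.7 and 19.8 CPM against 2.35 and 2.49 (−3.16, SE 0.15), and the kinases WAG1 and WAG2, which act on PIN efflux carriers (−2.49 and −2.43). PIN7 had 163 and 157 CPM in wild type and 48.7 and 40.4 in iaa3, and PIN3 230 and 213 against 95.6 and 91.0, so both hypocotyl efflux carriers were lower. ABCB4 was not called (209 and 185 against 205 and 247 CPM).

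Receptors, response factors and synthesis came next. Of the 6 TIR1/AFB receptor genes 1 was called lower, AFB1, with 97.5 and 97.3 CPM against 54.2 and 45.6 (log2 fold change −0.97, SE 0.08), while TIR1 stood at 192 and 185 against 192 and 193. Of 15 ARF genes, ARF10, a repressor-type ARF, was lower, with 42.7 and 38.3 CPM against 18.3 and 15.6 (−1.26, SE 0.09). ARF6, with 101 and 90.9 CPM against 134 and 156, and ARF8, with 23.3 and 19.3 against 33.1 and 31.9, were called higher at log2 fold changes of 0.59 and 0.61. These calls rest on single libraries: without wild type BL replicate 2 the values were 0.51 and 0.47 and neither gene was called. Among 9 auxin synthesis genes, YUC9, YUC3, TAR2 and YUC6 were called lower and YUC5 higher, all at 11.8 CPM or less. That number of 4 became 2 without wild type BL replicate 2 and 1 without iaa3 BL replicate 2. YUC8 had 20.4 and 20.7 CPM in wild type and 20.7 and 17.2 in iaa3. Of 252 tested genes from the study's list of ARF6 targets activated by auxin, 137 (54.4%) were called lower and 22 higher, or 14 higher without iaa3 BL replicate 2, and their median was −0.80. RGF6 (AT4G16515), a gene for a secreted peptide of this list, had 108 and 103 CPM against 1.09 and 1.64 (−6.25, SE 0.12).

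**Figure D2:**
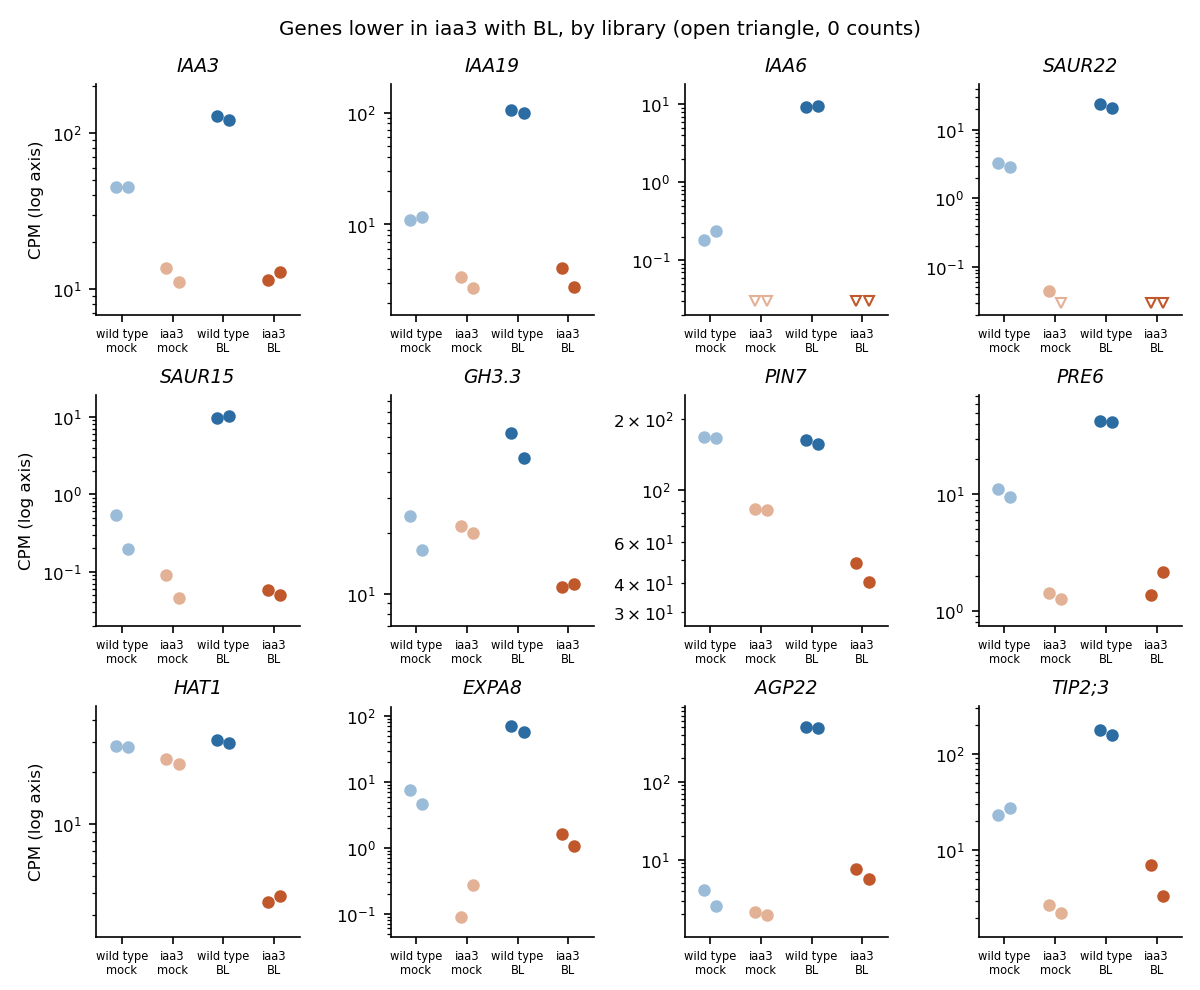
CPM (log axis, each panel with its own range) of 12 genes called lower in iaa3 with BL. Points are single libraries, 2 for each of the 4 groups, and open triangles mark libraries with no count, drawn at a fixed low position. The 2 iaa3 BL points lie below the 2 wild type BL points in every panel, and for HAT1 the mock points of the genotypes lie close together.

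The HLH growth module is a chain of helix-loop-helix proteins in which PRE proteins bind and disable inhibitors such as IBH1, PAR1 and AIF1, freeing bHLH activators such as HBI1 and BEE1 to promote elongation. Of 20 genes tested, 16 (80.0%) were called lower in iaa3, with a median of −1.03. On the promoting side, PRE6 had 42.3 and 41.6 CPM in wild type and 1.38 and 2.14 in iaa3 (log2 fold change −4.55, SE 0.15). PRE5 had 10 and 10.9 CPM in wild type and no count in iaa3, at least 65.1-fold lower, and PRE1 had 2.15 and 2.9 against 0 and 0.0996, a ratio of 47.4 with a 95% counting interval of 12.8 to 396. The activators moved less: HBI1 had 110 and 107 CPM against 64.6 and 60.9 (−0.79, SE 0.07), and BEE1 77.8 and 74.2 against 34.4 and 38.7 (−1.05, SE 0.09). The inhibitors were lower as well, PAR2 with 44.7 and 43.5 CPM against 6.08 and 6.03 (−2.86, SE 0.17), AIF1 with 10.7 and 11.1 against 3.1 and 3.24 (−1.78, SE 0.14), and IBH1 with 22.8 and 24.1 against 13 and 13.3 (−0.83, SE 0.08). PAR1 had 85.7 and 86.1 CPM against 59.1 and 51.1 (−0.64, SE 0.08), and its call was lost without iaa3 BL replicate 2 (−0.54). Promoting and inhibiting members of the chain were thus lower together.

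The HD-ZIP II genes encode homeodomain factors of shade and auxin responses, and 6 of 10 were called lower. HAT1 had 30.8 and 29.6 CPM in wild type BL and 3.56 and 3.84 in iaa3 BL (log2 fold change −3.02, SE 0.10), against 28.5 and 28 and 24 and 22.3 in mock, an interaction of −2.74 with an adjusted p of 7.6e-07 (edgeR, Benjamini-Hochberg). HAT3 had 22.6 and 23.4 CPM against 3.04 and 3.44 with BL (−2.82, SE 0.13), and in mock it was lower to a similar degree (−2.47). HAT2 and ATHB2 were lower by 2.48 and 1.53 on the log2 scale with BL. HAT22 was not called (91 and 93.7 against 58.9 and 67.3 CPM), although it was with library size alone (−0.61) and without iaa3 BL replicate 2 (−0.65).

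Wall-loosening proteins formed the next group. Expansins loosen the cell wall at acid pH, and 9 of 19 alpha-expansin genes (47.4%) were called lower, with a median of −0.96 that moved to −0.44 without iaa3 BL replicate 2. EXPA8 had 71.4 and 57.9 CPM in wild type and 1.61 and 1.05 in iaa3 (log2 fold change −5.62, SE 0.25), EXPA11 81.7 and 78 against 19.6 and 12.7 (−2.32, SE 0.14), and EXPA3 108 and 103 against 19.6 and 25.9 (−2.21, SE 0.11). EXPA4 was not called, at 197 and 197 against 153 and 135 CPM. Of 8 beta-expansin and expansin-like genes, EXPB1, EXLA2, EXLA1 and EXLA3 were lower, EXLA3 by a call lost without iaa3 BL replicate 1 (−0.82) or wild type BL replicate 1 (−0.92). EXLA2 had 133 and 138 CPM against 17.4 and 18.5 (−2.91, SE 0.08), while in mock it stood at 14.7 and 16.6 against 16 and 16.9, an interaction of −2.98 (adjusted p 6.0e-07, edgeR). The 2 higher members were at low levels, EXLB2 with 0.269 and 0.536 CPM against 9.3 and 10.9, and PNP-A with no count in wild type BL and 0.689 and 0.747 CPM in iaa3.

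Arabinogalactan proteins (AGPs) and their fasciclin-like relatives (FLAs) are glycoproteins of the cell surface. Of 43 tested, 26 (60.5%) were called lower in iaa3 and 4 higher, and their median was −1.04. Summed over the list, the level was 6060 and 6050 CPM in wild type BL, 1850 and 1930 in iaa3 BL, and 1660 to 1810 in the 4 mock libraries. AGP22 (AT5G53250) had 496 and 492 CPM in wild type BL and 7.63 and 5.63 in iaa3 BL (log2 fold change −6.23, SE 0.15), against 4.04 and 2.55 and 2.15 and 1.95 in mock. AGP4 had 642 and 642 CPM against 34.3 and 23.9 with BL (−4.47, SE 0.20), AGP24 126 and 123 against 12.7 and 9.27 (−3.51, SE 0.11), and AGP13 23.8 and 26.2 against 1.03 and 0.947 (−4.65, SE 0.18). FLA9 had 925 and 883 CPM against 239 and 218 with BL (−1.98, SE 0.10), and 195 and 156 against 201 and 188 in mock. Wild type BL was thus the group that stood apart in AGP22, AGP13 and FLA9. AGP1, AGP5, AGP17 and FLA5 went the other way, AGP1 with 19.4 and 19.9 CPM against 68.2 and 80.3 (1.92, SE 0.10) and FLA5 by a call lost without replicate 2 of either genotype with BL (1.06 and 1.11). By the genotype and treatment interaction, 24 members moved towards lower and 6 towards higher values in iaa3, and 20 to 24 and 3 to 6 with any 1 library left out.

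Enzymes that modify wall polymers split by family. Of 119 tested genes for pectin methylesterases, pectate lyases and related enzymes, 39 (32.8%) were called lower and 14 (11.8%) higher. The pectate lyase gene AT3G07010 had 207 and 188 CPM in wild type and 18.4 and 16.1 in iaa3 (log2 fold change −3.52, SE 0.10), and ATPMEPCRD (AT2G43050), a pectin methylesterase gene, 76.6 and 64.6 against 2.18 and 1.44 (−5.30, SE 0.15). The XTH genes, whose enzymes cut and rejoin xyloglucan, were called lower in 8 and higher in 8 of 29. XTH4 had 2050 and 1870 CPM against 471 and 464 (−2.07, SE 0.08), XTH17 119 and 119 against 23 and 25.8 (−2.28, SE 0.09), and XTH19 112 and 114 against 19.6 and 25.8 (−2.31, SE 0.12). XTH15 had 1090 and 1190 CPM against 2970 and 2770 (1.33, SE 0.08), and XTH7 (2.55 and 1.65 against 20 and 13.9 CPM) and XTH32 (4.3 and 4.65 against 17.5 and 20.7) were higher as well. XTH17 stood lower in iaa3 with BL but higher in mock (16 and 14.5 against 34 and 40.4 CPM), an interaction of −3.57 (adjusted p 6.0e-07, edgeR). MIOX4, which makes glucuronate for wall sugars, showed the same change of sign, with 46.8 and 45.3 against 4.65 and 5.48 CPM with BL and 1.41 and 1.12 against 5.54 and 7.08 in mock.

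Extensins and proline-rich wall proteins were called lower in 8 and higher in 8 of 45, the latter 5 without wild type BL replicate 2. LRX2 had 152 and 112 CPM against 11.8 and 14.5 (log2 fold change −3.32, SE 0.20) and PRP2 206 and 172 against 17.4 and 31.1 (−2.95, SE 0.20), whereas EXT4 had 613 and 604 against 1190 and 1190 (0.97, SE 0.08). Class III peroxidases, which cross-link wall components, were lower in 14 (23.7%) and higher in 18 (30.5%) of 59. PRX37 had 20.9 and 20 CPM against 131 and 143 (2.74, SE 0.08), and AT5G51890 12 and 9.11 against 1.66 and 1.49 (−2.74, SE 0.21). The cellulose synthase genes of the primary wall were near the background, with 1 of 6 called, CESA9, at 1.75 CPM or less and not without wild type BL replicate 1 (−1.32) or iaa3 BL replicate 1 (−1.57), while CESA1 had 1000 and 894 CPM against 889 and 910. The proton pumps of the plasma membrane, which acidify the wall, were also little changed: HA2 had 1290 and 1200 CPM against 894 and 779 and was not called (−0.57, SE 0.10), although it was with library size alone and without wild type BL replicate 2 or iaa3 BL replicate 1, and HA7 was called higher (4.3 and 6.39 against 7.92 and 8.22 CPM) but not without wild type BL replicate 1 (0.34).

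Genes of secondary walls and xylem were lower in 14 of 24 (58.3%), with a median of −1.52, and were lower in mock as well (16 of 24, median −1.48). CESA8 had 7.75 and 5.58 CPM with BL in wild type and 1.03 and 0.947 in iaa3 (log2 fold change −2.75, SE 0.24), XCP2, a protease of xylem vessels, 35.4 and 34.5 against 8.9 and 8.27 (−2.03, SE 0.13), and XCP1 11.4 and 10.7 against 2.01 and 2.64 (−2.24, SE 0.20). MYB63, an activator of lignin synthesis, was the member called higher (3.18 and 3.35 against 10.6 and 7.27 CPM). These genes mark xylem cells, and a smaller share of xylem cells cannot be told apart from less RNA in each. IRX14 was not called and had 31.7 and 27.3 against 28.8 and 29.5 CPM.

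Water channels and the cytoskeleton moved with the wall genes. Of 30 aquaporin genes 18 were called lower, with a median of −1.25, and 17 had an interaction towards lower values in iaa3 with BL (13 to 17 with any 1 library left out). TIP2;3, a channel of the vacuole membrane, had 177 and 158 CPM in wild type and 7.06 and 3.34 in iaa3 (log2 fold change −5.03, SE 0.21), and TIP2;2 had 223 and 214 against 21.5 and 10.2 (−3.80, SE 0.24). Among channels of the plasma membrane, PIP2;4 had 151 and 131 CPM against 15.6 and 15.8 (−3.16, SE 0.11), PIP1B 3150 and 3070 against 1020 and 955 (−1.66, SE 0.07), and RD28 372 and 343 against 111 and 106 (−1.72, SE 0.10). RD28 did not differ in this way in mock, at 47.4 and 38.7 against 44.9 and 39.1 CPM. TIP2;3, TIP2;2 and PIP2;4 are known mainly from roots, whose markers were lower in sum both with BL and in mock. The part of a root share in the aquaporin values was not tested. The list's sum was 25000 and 24100 CPM in wild type BL and 9760 and 9220 in iaa3 BL, against 11000 and 11100 and 8620 and 8620 in mock. NIP2;1, a channel induced by low oxygen, was the member called higher, with 4.17 and 5.85 CPM against 120 and 141 (4.70, SE 0.51). Of 15 tubulin genes 7 were called lower and TUA1 higher (92.5 and 103 against 197 and 188 CPM). TUB1 had 87.8 and 78 CPM against 12.9 and 12.9 (−2.69, SE 0.11), TUB8 182 and 184 against 57.2 and 51.7 (−1.75, SE 0.07), and TUB4 was not called (881 and 862 against 763 and 788).

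Cuticle genes were called lower in 10 of 25 with BL and in 2 of 25 in mock, CER1 and KCS4, which were lower in both. CER1, needed for alkane synthesis, had 61.4 and 57.6 CPM against 6.94 and 8.87 (log2 fold change −2.90, SE 0.24), and KCS9, a fatty acid elongase gene, 113 and 111 against 28.2 and 29.3 (−1.96, SE 0.07) with 29.7 and 28.5 against 25.8 and 24.3 in mock. KCS8 was called higher (85.2 and 93.0 against 147 and 155 CPM). Of 44 nuclear genes for photosystems and their antenna, 23 (52.3%) were called lower, with log2 fold changes from −1.99 to −0.05 and a median of −0.68. In mock 6 of 44 were called lower, but 1 without wild type mock replicate 2, 10 without wild type mock replicate 1 and 3 without iaa3 mock replicate 1. Lhca6 had 31.6 and 29.3 CPM against 12.1 and 10.1 (−1.46, SE 0.13), LHCB2.3 25.6 and 22.1 against 9.13 and 5.68 (−1.70, SE 0.22), and CAB1 2100 and 1770 against 1210 and 952 (−0.84, SE 0.15), although CAB1, CAB2 and CAB3 are near copies and their reads may be shared. The mock libraries of wild type differed in this list, with sums of 11300 and 14400 CPM. By the interaction, 19 members moved towards lower values in iaa3, but 5 without iaa3 mock replicate 2, 6 without either wild type BL library or iaa3 BL replicate 2, 11 without iaa3 mock replicate 1 and 39 without wild type mock replicate 2. Of 19 chlorophyll synthesis genes, 6 were lower, among them PORC (29.3 and 24.4 against 7.46 and 7.27 CPM), PORA (1110 and 1170 against 564 and 477) and GUN5, a subunit of magnesium chelatase (416 and 348 against 199 and 190), and HEMA2 was higher. PORB was not called and had 1540 and 1570 against 1780 and 1640 CPM.

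**Figure D3:**
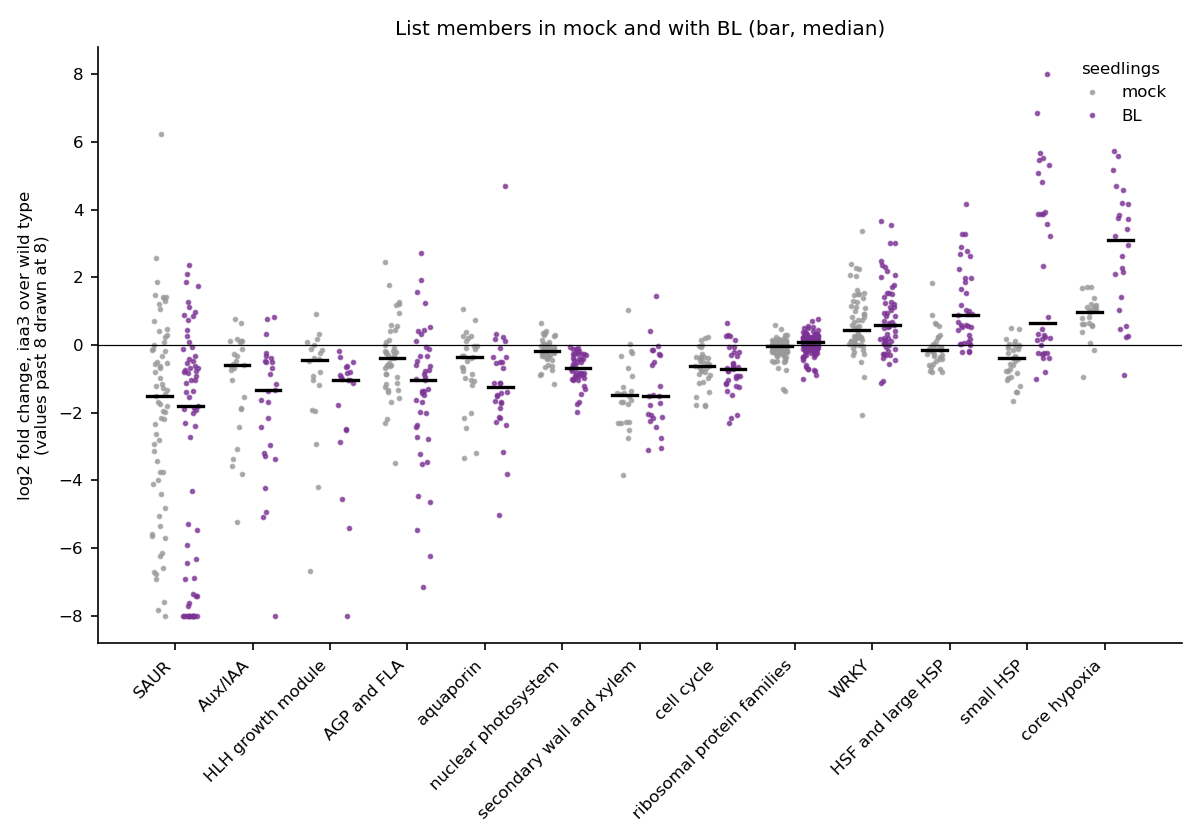
Log2 fold change, iaa3 over wild type, of each tested member of 13 lists, in mock (grey) and with BL (purple), with a bar at the median. Values past 8 in either direction are drawn at 8, and those at the lower edge include members with no count in iaa3, whose fitted value is no measure of size. SAUR and secondary wall genes sit low in both conditions, AGP, aquaporin and photosystem medians lie lower with BL, the ribosomal protein families centre near 0 in both, and small HSP and core hypoxia members spread upwards with BL.

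The gibberellin genes were lower in 10 and higher in 4 of 19. GA3OX1, which makes the active hormone, had 9.63 and 8.76 CPM in wild type and 3.62 and 3.89 in iaa3 (log2 fold change −1.29, SE 0.14), and GA20OX1, the step before it, 5.24 and 4.42 against 0.0574 and 0.0498 CPM. GA2OX2 and GA2OX7, which inactivate gibberellin, and the receptor genes GID1A and GID1B were higher: GA2OX2 had 15.7 and 15.8 CPM against 32 and 43.3 (1.26, SE 0.12) and GID1A 58.5 and 57.8 against 104 and 100 (0.81, SE 0.09). GA2OX6, which also inactivates gibberellin, was called lower (66.8 and 74.7 against 40.9 and 49.5 CPM, −0.64, SE 0.09). The DELLA repressor gene RGL1 was lower (14.3 and 13.8 against 3.85 and 3.64 CPM), and GASA4, a gibberellin-induced gene, had 1060 and 962 against 347 and 284 CPM (−1.68, SE 0.10). Of 7 BR synthesis genes CYP90D1 was called higher, at 0.582 and 1.03 against 3.33 and 3.29 CPM, while DWF4 had 4.97 and 4.38 against 4.94 and 4.93. In BR signalling 15 of 19 genes were not called, BZR1 among them (56.9 and 53.8 against 35.6 and 38.3 CPM, log2 fold change −0.58, SE 0.08), and its call changed with the processing. BZR1's relative BEH4 was lower (39.8 and 34.1 against 16.2 and 17.6 CPM), while BSL1, a phosphatase of the pathway, was higher (85.1 and 76.4 against 195 and 210), as were BRL1 (2.19 and 2.86 against 3.96 and 3.74) and BAK1, by calls lost without wild type BL replicate 1 for BRL1 (0.43) and without iaa3 BL replicate 2 for BAK1 (0.41). Of 6 BR inactivation genes, BAS1 was lower (55 and 50.7 against 14 and 15.6 CPM), as were AT4G31910 (6.99 and 7.95 against 4.19 and 3.09) and BEN1. The BEN1 call was lost without replicate 1 of either genotype with BL (−0.52 in both), without either iaa3 mock library and with DESeq2. UGT73C5, a glucosyltransferase that acts on BRs, was higher (9.27 and 9.87 against 39.8 and 48).

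Of 12 PIF and phytochrome genes, PIL1 was called lower (21.1 and 18.8 against 11.5 and 10.9 CPM) and PIF7 higher (0.582 and 0.759 against 2.35 and 3.79), while PIF4 had 50.5 and 49.4 CPM in wild type and 40 and 39.5 in iaa3 (log2 fold change −0.33, SE 0.08). Cytokinin genes differed in 5 of 23, near the 25.0% of all genes. They included LOG1, which releases active cytokinin, at 18.5 and 17.9 against 5.05 and 4.09 CPM, CKX6 at 7.97 and 8.13 against 2.53 and 3.39, and ARR7, a response regulator, at 3.85 and 3.66 against 10.5 and 15.2. The others were IPT7, higher, and IPT5, whose lower call was lost without wild type BL replicate 1 (−0.50). Among abscisic acid genes 5 were lower and 6 higher of 22. The phosphatase gene ABI2 had 20 and 18.5 CPM against 3.16 and 3.39 (−2.55, SE 0.15), and CYP707A3, which breaks abscisic acid down, 17 and 15.7 against 71.2 and 89.5 (2.3, SE 0.12). NCED3, which makes it, ABI3, LTI65 and AT5G66400 were the other 4 genes called lower, the last by a call lost without wild type BL replicate 1 (−1.44). LEA genes, known from late embryos and drying tissue, were lower in 17 of 39 (43.6%), but in 7 without wild type BL replicate 1 and 9 without iaa3 BL replicate 1. Seed storage and oleosin genes were lower in 2 of 12, OLEO3, with a log2 fold change of −1.85, and PAP85, at 23.9 and 28.4 against 2.47 and 6.28, whose call was lost without iaa3 BL replicate 1 (−2.06). Without iaa3 BL replicate 2 the number was 6. CRA1, at 264 and 190 against 21.8 and 124 CPM, was called only without that library (−3.38).

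Cell cycle genes were lower in 14 of 34 (41.2%), with a median of −0.70. CYCD1;1, a cyclin of cell cycle entry, had 30 and 28.5 CPM against 6.77 and 5.03 (log2 fold change −2.32, SE 0.12), and PCNA2, a clamp of DNA replication, 12.7 and 13.1 against 7.23 and 8.02 (−0.76, SE 0.11). KRP2, an inhibitor of cyclin-dependent kinases, was called higher (5.6 and 4.74 against 7.81 and 8.32 CPM), but not without wild type BL replicate 2 (0.52). Without 1 library the number changed: 9 were called lower without wild type BL replicate 1 and 7 without iaa3 BL replicate 2. The shoot meristem gene STM had 19.2 and 21 CPM against 5.97 and 6.18 (−1.72, SE 0.13) and KNAT1 56.1 and 55.2 against 33.3 and 31 (−0.79, SE 0.07), and with CLV3, whose call was lost without any 1 of several libraries, they were the 3 apex and leaf markers called lower. In contrast, the gene families of cytosolic ribosomal proteins were called in 8 of 161, 6 lower and 2 higher, with a median of 0.08, below the background in both directions.

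Genes of the core hypoxia response were the list with the largest share called higher. When oxygen is low, group VII ERF factors escape degradation and induce genes of fermentation, sugar breakdown and oxygen scavenging. Of 24 genes tested, 19 (79.2%) were called higher in iaa3 with BL, with a median log2 fold change of 3.09, and the counts were 19 to 20 with any 1 library left out. For fermentation, PDC1 (AT4G33070), pyruvate decarboxylase, had 10.5 and 9.69 CPM in wild type and 517 and 548 in iaa3 (5.72, SE 0.71), and ADH1 (AT1G77120), alcohol dehydrogenase, 54.6 and 93 against 2560 and 2760 (5.17, SE 0.78). For sugar breakdown, the sucrose synthase genes SUS1 and SUS4 had 22.5 and 24.3 against 416 and 414 CPM (4.15, SE 0.41) and 27.4 and 27.9 against 355 and 373 (3.72, SE 0.46). HB1, a haemoglobin, had 40.5 and 54.7 CPM against 827 and 897, and RBOHD, an oxidase that makes superoxide, 22 and 20.5 against 181 and 219 (3.23, SE 0.16). Of the ERF factors, HRE2 had 0.582 and 0.759 CPM against 31.5 and 33.2 (5.58, SE 0.52), while EBP was called lower, with 882 and 892 against 477 and 471 (−0.90, SE 0.07). The genotypes did not overlap in these genes, which is no separate result, since it was required when the largest falls and rises were chosen. With 2 libraries a group genes without a difference can also lack overlap, and the share over all genes was not counted. Outside the list, AT5G10040 had 0.314 and 0.536 CPM against 54.1 and 64.4, and AT2G17850 3.27 and 4.15 against 151 and 160.

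In mock, the hypoxia genes varied within groups. Their summed level was 4510 and 3150 CPM for the mock libraries of wild type and 6560 and 5310 for those of iaa3, against 2820 and 2840 in wild type BL and 10500 and 11300 in iaa3 BL. In mock 9 of 24 were called higher, with a median of 0.97, but 20 without wild type mock replicate 1 and 5 without iaa3 mock replicate 1. The interaction was called towards higher values in 17, and in 8 without either wild type BL library, 10 without iaa3 mock replicate 2 and 19 without wild type mock replicate 2. The part of this difference between replicates in the mock and interaction counts was not tested.

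Many heat shock genes were higher in iaa3 with BL, and few were called higher in mock. Small heat shock proteins bind unfolding proteins, and 16 of 32 (50.0%) were called higher with BL, with a median of 0.65 that moved to 0.39 without wild type BL replicate 2 and 0.40 without iaa3 BL replicate 2. In mock 4 were called lower, or 2 without iaa3 mock replicate 2, and the median was −0.40, or −0.23 without that library or wild type mock replicate 1. The interaction was called towards higher values in 17 of 32, and in 17 or 18 with any 1 library left out. HSP23.6-MITO had 0.403 and 0.491 CPM in wild type BL and 52.9 and 52.4 in iaa3 BL (log2 fold change 6.86, SE 0.26), against 1.45 and 0.518 and 1.07 and 0.635 in mock. HSP21, of the chloroplast, had 0.0896 CPM and no count in wild type BL and 29.1 and 27 CPM in iaa3 BL, a ratio of 625 with a 95% counting interval of 173 to 5170. AT1G07400 had 1.7 and 1.43 CPM against 74.1 and 85.1 (5.66, SE 0.22), HSP22.0 1.25 and 1.34 against 49 and 55.2 (5.32, SE 0.24), and HSP18.2 0.403 and 0.759 against 28.2 and 26.3 (5.53, SE 0.35). In each of these the iaa3 BL libraries stood above all 6 others. The 2 members called lower were AT5G20970 (7.53 and 8.4 against 2.98 and 4.78 CPM) and AT2G27140 (5.64 and 8.62 against 4.65 and 3.64), the latter not without wild type BL replicate 2 (−0.46) or iaa3 BL replicate 2 (−0.62).

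Heat stress factors and large chaperones were higher in 19 of 37 (51.4%), with a median of 0.87. In mock 3 of 37 were called higher and 6 lower, with a median of −0.14. The interaction was called towards higher values in 22 and towards lower values in 1. HSFA2, the factor most strongly induced by heat, had 2.51 and 2.1 CPM against 38 and 43.9 with BL (log2 fold change 4.15, SE 0.15) and 4.35 and 3.75 against 5.32 and 4.18 in mock. HSP90.1 had 39.8 and 38.7 CPM against 262 and 323 (2.90, SE 0.11), HSP101, which takes aggregates apart, 27.1 and 22.1 against 142 and 175 (2.69, SE 0.12), HSP70B 12.4 and 5.94 against 83.7 and 94.3 (3.28, SE 0.22), and FKBP65, a chaperone of the immunophilin family, 7.3 and 6.34 against 64.2 and 67.2 (3.27, SE 0.15). HSC70-1, a chaperone made without stress, was not called and had 1470 and 1370 against 1450 and 1450 CPM. The windows before HSFA2 and HSP21, from TAIR10.1 as above, are shown because both genes stood low in all 6 other libraries and their windows hold the motif marked. Capitals mark GAANNTTC, the core of the heat shock element, and in HSFA2 also CACGTG, and both windows were chosen after the values were seen.
HSFA2, chr2:11135374-11135623, plus strand: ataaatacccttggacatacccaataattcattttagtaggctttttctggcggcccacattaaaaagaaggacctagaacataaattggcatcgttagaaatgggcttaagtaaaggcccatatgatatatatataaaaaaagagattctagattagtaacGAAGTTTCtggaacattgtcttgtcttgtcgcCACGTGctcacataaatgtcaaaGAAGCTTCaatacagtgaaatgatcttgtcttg
HSP21, chr4:13819972-13820221, minus strand: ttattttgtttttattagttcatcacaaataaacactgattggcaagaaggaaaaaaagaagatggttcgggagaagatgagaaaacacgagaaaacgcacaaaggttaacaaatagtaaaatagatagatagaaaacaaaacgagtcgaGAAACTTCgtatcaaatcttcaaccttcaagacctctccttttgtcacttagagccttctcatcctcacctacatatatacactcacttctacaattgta
HSFA2 holds GAANNTTC beginning 88 and 33 bases before the start and CACGTG at 56, and HSP21 holds GAANNTTC at 100. No GAANNTTC stood in the windows of HSP23.6-MITO, HSP22.0, HSP18.2, AT1G07400, HSP90.1, HSP70B and FKBP65, which were also higher in iaa3 with BL. GAANNTTC stood in 9.39% of all windows, 12.9% of those of genes called higher, 8.47% of those called lower and 15.6% of small HSP windows (5 of 32). Its share was 13.5% for heat stress factors and large chaperones. Whole lists of other functions had similar shares, 15.8% for alpha-expansins, 14.0% for AGP and FLA genes and 13.6% for WRKY genes. Among members called in either direction, the share was 27.8% (5 of 18) for small HSP genes. For heat stress factors and large chaperones it was 15.8% (3 of 19).

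**Figure D4:**
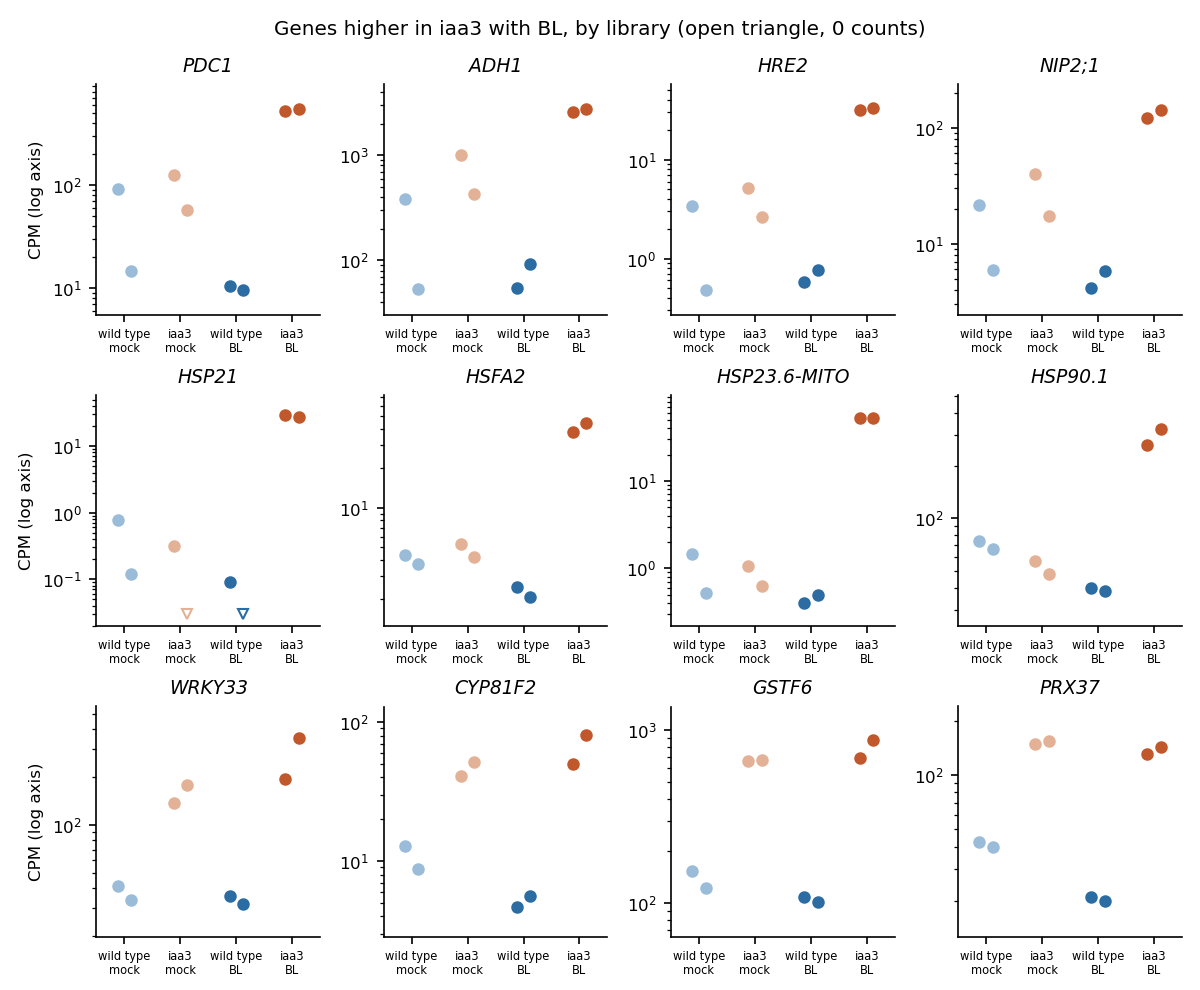
CPM (log axis, each panel with its own range) of 12 genes called higher in iaa3 with BL, 1 point per library and 2 libraries for each of the 4 groups; open triangles mark libraries with no count, drawn at a fixed low position. For the heat shock genes in the middle row the iaa3 BL points stand alone at the top, while for WRKY33, CYP81F2, GSTF6 and PRX37 both iaa3 groups lie above both wild type groups.

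Defence genes were higher in iaa3, in mock as well as with BL. WRKY factors act in immune and stress responses, and 28 of 59 (47.5%) were called higher with BL and 23 in mock, 21 of them in both. WRKY33 had 35.7 and 31.9 CPM in wild type and 195 and 353 in iaa3 (log2 fold change 3.02, SE 0.24), WRKY46 2.06 and 1.47 against 17.3 and 27.8 (3.67, SE 0.29), and WRKY53 4.39 and 5.36 against 23.4 and 26.6 (2.36, SE 0.14). WRKY57 (9.05 and 7.73 against 4.02 and 4.04 CPM) and WRKY60 (6.36 and 7.28 against 3.44 and 2.79) were called lower. Of 10 genes of salicylic acid and defence, 7 were higher, including CBP60G, a regulator of salicylic acid synthesis, with 10.3 and 10.4 against 35.8 and 61.6 CPM (2.24, SE 0.21), ICS1, the synthesis enzyme, with 8.2 and 9.02 against 24.3 and 30.9 (1.69, SE 0.12), and NPR1, its receptor, with 46.5 and 48 against 84.4 and 98.7 (0.96, SE 0.09). PR1, the usual marker of this response, was the one called lower, with 5.2 and 3.98 against 0.344 and 0.598 CPM (−3.24, SE 0.29). In each of the higher genes given here iaa3 BL replicate 2 was above replicate 1.

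Jasmonate genes were higher in 12 of 22 (54.5%), with a median of 0.92 that moved to 0.59 without iaa3 BL replicate 2. LOX3, an early step of jasmonate synthesis, had 1.03 and 1.07 CPM against 5.17 and 11.7 (log2 fold change 3.01, SE 0.39), AOC3 12.9 and 13.6 against 31.7 and 48 (1.59, SE 0.20), and the repressor gene JAZ3 24.1 and 20.8 against 59.1 and 63.1 (1.45, SE 0.11). VSP1 was called lower at 1.52 and 1.7 against 0.402 and 0.747 CPM, a call lost without wild type BL replicate 2 (−1.38) or iaa3 BL replicate 1 (−1.10). Of 25 ethylene synthesis and receptor genes, 8 were higher and ACS5, ACS4 and ACS8 lower. ACS5 had 50.8 and 44.1 CPM in wild type BL against 0.631 and 0.199 in iaa3 BL (−6.87, SE 0.25), with 0.319 CPM or less in all mock libraries, and ACS8 14 and 15.2 against 2.18 and 3.24 (−2.41, SE 0.20). ACS7 was higher, at 2.37 and 2.28 against 6.6 and 9.42 CPM (1.79, SE 0.20), as was the oxidase gene ACO1, at 12.1 and 14.6 against 97.9 and 102 (2.91, SE 0.33). Isoforms of the same enzyme step, ACC synthase, thus differed in opposite directions.

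Glucosinolates are sulphur-containing defence compounds of the cabbage family, and 10 of 25 of their genes were higher and 4 lower. CYP81F2, which modifies indole glucosinolates, had 4.7 and 5.63 CPM against 50.2 and 80.3 (log2 fold change 3.66, SE 0.25), and MYB51, a regulator of that branch, 41.8 and 40.9 against 98.5 and 155 (1.62, SE 0.18). The 4 lower genes were AOP1 (5.51 and 6.08 against 0.918 and 0.299 CPM), SOT18 (12.2 and 11.5 against 4.88 and 3.69), MYB34 and AT2G31790. The call of AT2G31790 was lost without iaa3 BL replicate 1 (−0.57), either wild type BL library or either iaa3 mock library. Glutathione S-transferases were higher in 11 (29.7%) of 37, with GSTF6 at 109 and 102 against 688 and 876 CPM (2.89, SE 0.13) and GSTF2 at 246 and 259 against 661 and 661 (1.39, SE 0.07). GSTU18 and GSTU9 were called lower, at 8.91 and 8.35 against 4.13 and 3.89 CPM and 4.3 and 5.99 against 3.33 and 3.14, the latter not without wild type BL replicate 2 (−0.42).

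Of 19 nitrate genes 6 were lower, NRT1.5, which loads nitrate into the root xylem, with 35.8 and 30.5 against 5.62 and 6.68 CPM (log2 fold change −2.42, SE 0.12) and GLU1, a glutamate synthase, with 332 and 281 against 112 and 106 (−1.49, SE 0.11), while NIA2, a nitrate reductase, was higher (277 and 282 against 399 and 454), but not without iaa3 BL replicate 2 (0.51). Phosphate starvation genes differed in 6 of 17, SPX1 and PS2 being higher (16.6 and 19.3 against 37.8 and 38, and 1.75 and 1.34 against 6.03 and 8.52 CPM) and MGDC, MGD2, PHO1;H1 and AT5G03545 lower, PHO1;H1 by a call lost without replicate 1 of either genotype with BL (−1.34 and −1.29). Of 12 iron uptake genes NAS4, bHLH39, FRO2 and FIT were called lower, a number that fell to 1 or 2 without any 1 of the 4 BL libraries, and PYE, OPT3 and FRO3 higher. Starch and carbon starvation genes were called in 6 of 25, near the 25.0% of all genes. PWD had 7.39 and 5.58 against 23.1 and 22.3 CPM and PHI-1 89.1 and 87.3 against 221 and 223, while ASN1, an asparagine synthetase induced in the dark, had 4870 and 4670 against 5520 and 5520. Of 16 clock genes 3 were lower and 3 higher. CHE had 26.5 and 25.3 CPM against 9.36 and 10.2 and GI 93.5 and 89.4 against 142 and 144, TOC1 was not called (324 and 328 against 353 and 349), and without 1 BL library the number higher fell to 1. Photomorphogenesis regulators were lower in 5 and higher in 4 of 17, with HYH at 6.67 and 6.52 against 2.98 and 3.74 CPM and BZS1 at 50.1 and 71.3 against 118 and 141. The number lower was 3 without iaa3 BL replicate 1, and the number higher was 2 without wild type BL replicate 1 or iaa3 BL replicate 2. Flavonoid genes differed in 3 of 11, near the 25.0% of all genes, MYBL2 among them (21.6 and 23.5 against 67.2 and 67.6 CPM). TT5 and EGL3 were lower, TT5 by a call lost without wild type BL replicate 2 (−1.50) or either iaa3 BL library. Of 18 root hair genes 3 were called higher, RHD6, SHV2 and PRP1, and 1 without wild type BL replicate 1. Of 5 auxin-responsive LBD genes, LBD33 was called higher at 0.0448 and 0.0893 against 1.03 and 0.598 CPM, and LBD16 was not called (6.72 and 5.81 against 5.28 and 3.74), although it was without iaa3 BL replicate 1 (−0.74).

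Of the 2826 genes called lower with BL, 1300 (46.0%) were called lower in mock too, 46 were higher there and 1480 were not called there. Of the 2284 called higher, 1141 (50.0%) were also higher in mock, 27 were lower and 1116 were not called. For 722 of the lower and 529 of the higher genes the gene was not called in mock and the interaction was called in the direction of the BL difference. Members called lower in both conditions numbered 28 in the SAUR list and 13 among secondary wall genes, and 21 WRKY genes were called higher in both. AGP and FLA genes had 26 members called lower with BL and 14 in mock, cuticle genes 10 and 2, and GH3 genes 5 and 2. Of the study's ARF6 targets, 86 were lower in both and 110 had an interaction towards lower values. BL and mock values come from different libraries, while the interaction uses all 8.

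**Figure D5:**
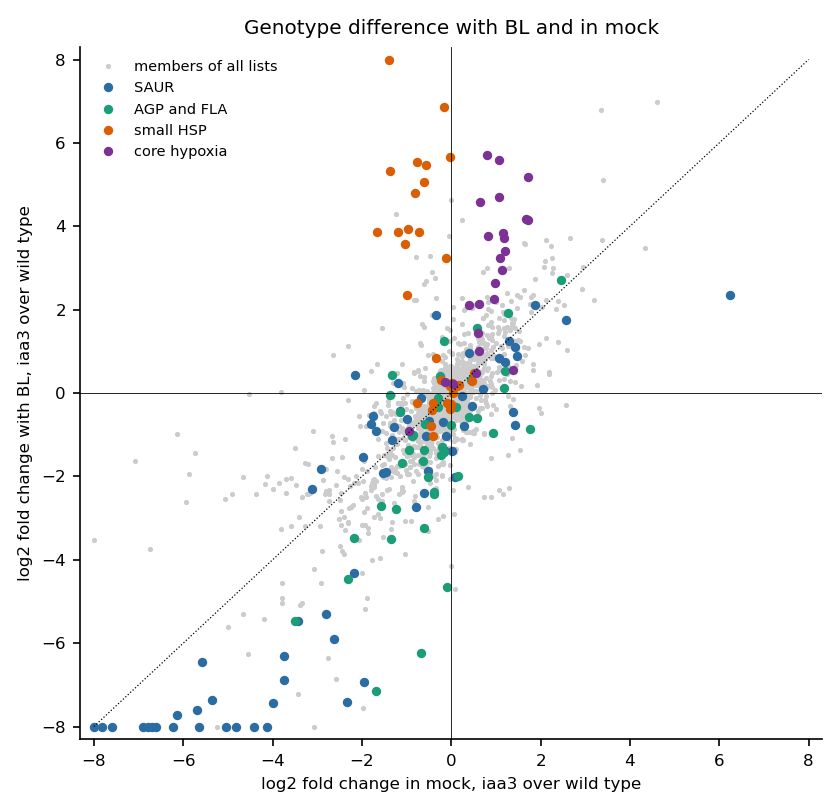
Log2 fold change, iaa3 over wild type, with BL against that in mock for the tested members of all lists (grey), with SAUR, AGP and FLA, small HSP and core hypoxia genes in colour. The dotted line marks equal differences, and values past 8 are drawn at 8. Many SAUR points lie at the lower left, many AGP and FLA points below the line, and small HSP and hypoxia points above it.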

How the data were processed

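RNA from whole dark-grown seedlings was isolated with the Spectrum kit and made into TruSeq libraries. The authors deposited raw read counts per gene, which are not normalised. The submitters' processing notes name CASAVA 1, TopHat, HTSeq and the TAIR9 build, and the strand setting and the treatment of reads with several matches are not given in the sources used here. All 8 columns matched a sample, and 0 columns were left unmapped. Genes with low counts were removed with filterByExpr and 20415 were tested.

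Counts were fitted with edgeR 4.0.16 in R 4.3.3 (quasi-likelihood test, TMM factors, 1 coefficient for each of the 4 groups, all 8 libraries), since the shared fit estimates the spread from more libraries than the 4 compared. A gene was called at 1.5-fold or more and an unadjusted p under 0.01, as in the study's methods, and the interaction at a Benjamini-Hochberg adjusted p under 0.05. Every adjusted p in the text comes from edgeR and is taken over all genes tested. The SE is the log2 fold change over the root of F. On simulated counts for the BL comparison, 199 of 200 planted changes were recovered and 68 of the 20415 genes were called falsely. The planted changes were 4-fold, in genes with a mean above 1 CPM, and all other genes were left unchanged. The recovery of 1.5-fold changes or of changes in genes near the floor was therefore not measured.

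The genes and lists were chosen with earlier results of these data known. Named genes were IAA3, ARF6, ARF8, PIF4, BZR1 and genes the study names, the 12 largest falls and rises, up to 4 members per list with a CPM of at least 5 in both libraries of a group and the member with the highest mean CPM, and the 4 largest rises and falls by interaction. For the largest falls and rises, no overlap between the genotypes with BL was required. Further genes were named after their values were seen, to list the members of short counts and to give roles. Ratios of genes with 1 to 3 counts carry exact 95% intervals, and folds against groups with no count use a floor of 3 counts per library. These intervals and floors cover counting error only. CPM is not divided by gene length, so levels of different genes were not compared.

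Upstream windows were cut from the RefSeq TAIR10.1 genome by gene start, and 5 motifs were searched on both strands. DESeq2 1.42.0, other scalings and filters, a replicate block and leaving out each library were tried as alternatives.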

Additional observations from a re-analysis of the deposited data

Results flagged for a closer look

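The genotype difference changed between mock and BL, by the test of the interaction of genotype and treatment, for 3589 genes. Of the genes called with BL, whose libraries did not overlap and whose log2 CPM averaged 3 or more, the 4 largest falls and 4 largest rises by this test follow. The interaction was −5.56 on the log2 scale for AGP22, −5.50 for MIOX4 and −4.56 for AGP13, and with any 1 library left out it ran from −5.92 to −5.27, −5.68 to −5.32 and −4.93 to −4.06. The interaction was 6.70 for HSP22.0 and 7.02 for HSP23.6-MITO, with 6.17 to 7.42 and 6.14 to 7.60 with any 1 library left out, and all of these passed the adjusted threshold. For SAUR16 it was −5.21 and for HSP21 10.52, but both stood near 0 in some groups, where the fitted value depends on the prior count. Without iaa3 mock replicate 1 the SAUR16 interaction had an adjusted p of 0.29 (edgeR). AT5G10040 had an interaction of 6.38, which moved to 2.1 with an adjusted p of 0.77 (edgeR) without wild type mock replicate 1, the library with 6.49 CPM of this gene against 0.159 in the other. The cause of the difference between these 2 libraries was not tested.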

How the results depend on the processing

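At a 2-fold difference 2992 genes were called with BL, 1680 lower and 1312 higher, and 1906 in mock, 1082 lower and 824 higher. Leaving out each library of the comparison gave 4425 to 4956 genes with BL, 2432 to 2599 lower and 1976 to 2357 higher, and 3116 to 3751 in mock, 1518 to 1937 lower and 1568 to 1814 higher. Leaving out each of the other 4 libraries, chosen after seeing the data, gave 5072 to 5245 with BL and 3511 to 3690 in mock. The interaction moved most, from 2028 to 4137 genes, with 1268 to 2362 more negative and 760 to 1775 more positive. It had 2346 without wild type BL replicate 1 (963 more positive), 2293 without wild type BL replicate 2 (855 more positive) and 2028 without iaa3 mock replicate 2 (1268 and 760), and the cause was not tested. DESeq2 called 4524 genes with BL, 4490 of them among the 5110 of edgeR, and library size alone 5138, 4841 of them shared, with the median of all genes at −0.06. Of 258 named genes 215 were called, and 188 kept the call under all 11 alternatives, while no value reversed. Counts and calls of single lists and genes that rest on 1 library were also computed without each of the 8, an alternative chosen after seeing the data. A call said to be lost without 1 library could be lost without others too, as for HA7, BRL1, BAK1, IPT5, AT5G66400, PAP85 and GSTU9. Replicate numbers did not pair the samples: deviations of same-numbered libraries correlated between −0.0627 and 0.0586 for 5 of 6 pairs of groups and at 0.237 for wild type mock with iaa3 mock. With a replicate block 5116 genes were called with BL, 5046 of them shared, and no named gene's call changed. At this depth 3 counts equal 0.12 to 0.172 CPM, below which a difference was not detectable.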

Other observations

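Families grouped by gene symbol also differed in iaa3 with BL, and 2 outside the lists above are described here. Of 27 tested genes with the symbol CRK, cysteine-rich receptor-like kinases except for CRK1 (AT2G41140), a kinase of another family with the same symbol that was not called, 17 (63.0%) were called higher, with a median log2 fold change of 0.99, against 11.2% of all genes. CRK13 had 1.16 and 1.12 CPM in wild type and 19.5 and 31.5 in iaa3 (4.48), CRK28 149 and 168 against 342 and 322 (1.07), and CRK29 222 and 201 against 411 and 432 (0.99). In mock 11 were called higher, 10 of them also with BL. Of 14 CNGC genes for cyclic nucleotide-gated channels 7 (50.0%) were higher, with CNGC10 at 21.3 and 23.4 against 43.2 and 44.9 CPM (0.98) and CNGC13 at 7.66 and 6.12 against 17.5 and 35 (1.94). Other symbols also had large shares called, among them ENODL (6 of 12 lower, 50.0%), SCPL (6 of 11 lower, 54.5%), UMAMIT (16 of 33 lower, 48.5%) and ERF (11 of 21 higher, 52.4%). The stem scpl in small letters was counted apart, with 10 of 21 lower (47.6%) and 1 higher. Among the ERF symbols, ERF1-1, ERF1-2 and ERF1-3 belong to another family with the same stem and were not called. All families were grouped by the stem of their gene symbols, and those with at least 10 tested members were ranked by the share called.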
